A study of Mus musculus with 8 samples.

Results

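Non-cycling CD8 T cells were 1460 of the 37757 cell barcodes of the series. A barcode was a member if it held at least 2 UMIs (counted RNA molecules) of Cd3d, Cd3e and Cd3g together, at least 2 UMIs of Cd8a and Cd8b1 together, and no Foxp3 UMI. It also had to hold fewer than 100 UMIs per 10000 of the macrophage genes C1qa, C1qb, C1qc, Apoe and Lyz2 together, and at most 2 UMIs of the cell cycle genes Mki67, Top2a, Birc5 and Cdca3 together. The members were thus chosen by the measured counts of these 15 genes, whose levels are a description and received no test. The members numbered 604 and 453 in LNP-Sirpa replicates 1 and 2, and 70 and 333 in control replicates 1 and 2.

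The study sorted CD45+ leukocytes from MC38 tumours, a colon carcinoma line of mouse origin, grown in wild-type mice, and sequenced their RNA cell by cell. The LNP-Sirpa group received a treatment that the labels call LNP-Sirpa, which the study's title ties to the degradation of SIRPα in tumours, and the control group is labelled only as control. Each group had 2 cDNA libraries, and all 4 libraries carry the same batch label. The labels do not say whether replicates came from separate animals or pools, so the p-values below measure only the spread between these libraries.

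CD8 T cells recognise peptides on MHC class I through the T cell receptor and its CD3 subunits, and kill target cells with perforin and granzymes. In tumours, long stimulation raises inhibitory receptors such as PD-1 and the transcription factor TOX, while interferons switch on antiviral genes in T cells as in most other cells. SIRPα is a receptor mainly of myeloid cells that binds CD47 and restrains phagocytosis.

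Members held a median of 6240.5 and 5589 UMIs in the LNP-Sirpa libraries and 5896 and 5962 in the control libraries. Their summed counts came to 4649472 and 3003450 UMIs in LNP-Sirpa and 476058 and 2234495 UMIs in control, so control replicate 1 gave the least precise values. Among members, 63 and 43 LNP-Sirpa cells and 7 and 27 control cells sat on the CD8 minimum, and 116 and 56 LNP-Sirpa cells and 8 and 31 control cells failed the rule by 1 CD8 UMI alone. At the macrophage limit, 135 and 76 LNP-Sirpa members and 17 and 81 control members held 50 to under 100 UMIs per 10000, while 187 and 87 LNP-Sirpa cells and 31 and 114 control cells just outside held 100 to under 200. At the cycle limit, 181 and 129 LNP-Sirpa members and 31 and 122 control members held 1 or 2 cycle UMIs, while 40 and 25 LNP-Sirpa cells and 5 and 19 control cells just outside held 3 or 4. Pairs of libraries shared 830 to 1242 barcode names in all and 0 to 3 among members, none with equal totals.

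The rule itself set the presence of CD3 and CD8 RNA, so the levels of Cd8a, Cd8b1 and Cd3g are no check of the label. Cd8a, which encodes the CD8 alpha chain, stood at 442 and 411 counts per 1000000 UMIs (CPM, a level within the members' summed counts) in LNP-Sirpa and 527 and 513 CPM in control. Cd8b1, the beta chain, stood at 619 and 750 CPM in LNP-Sirpa and 838 and 682 CPM in control. Cd3g stood at 903 and 1056 CPM in LNP-Sirpa and 1193 and 1155 CPM in control. Outside the rule, Pdcd1, Gzmb and Ifng were present in every library, and Gzmb was also found in NK cells and Foxp3-positive T cells. The 6 markers together, rule genes included, summed to 3779 and 4224 CPM in LNP-Sirpa and 3773 and 3638 CPM in control.

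RNA of other cell types was present in the same droplets and differed between the groups. The 16 macrophage markers outside the rule were all above 0 in all 4 libraries and summed to 4767 and 4985 CPM in LNP-Sirpa and 3552 and 3173 CPM in control. They stood at a median of 33.8% and 35.2% of their level in non-lymphoid barcodes (no CD3, CD8, Ncr1, Klrb1c, Cd79a or Ms4a1 UMI) in LNP-Sirpa and 23.1% and 19.4% in control. The 7 neutrophil markers summed to 1036 and 829 CPM in LNP-Sirpa and 37.8 and 177 CPM in control, where only 4 of them were above 0 in replicate 1. Erythroid and tumour epithelial marker sums were below 3 CPM in every library.

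Members made up a larger share of barcodes in both LNP-Sirpa libraries than in either control library. The share was 5.84% (95% Wilson interval 5.40 to 6.31) and 5.03% (4.60 to 5.50) in LNP-Sirpa and 0.932% (0.738 to 1.18) and 3.06% (2.75 to 3.40) in control. The groups averaged 5.43% ± 0.571 in LNP-Sirpa and 1.99% ± 1.503 in control (SD, n = 2 each), and the exact permutation test over libraries gave p = 0.33, the smallest that 2 against 2 allows. Intervals cover counting error only. Without the macrophage limit the shares were 8.61% and 6.45% in LNP-Sirpa and 1.68% and 6.52% in control, so the groups then overlapped (exact permutation p = 0.6667).

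The macrophage limit removed more droplets from control. Of all droplets that met the CD3, CD8 and Foxp3 conditions, cycling ones included, 36.5% and 24.9% lay above the limit in LNP-Sirpa and 54.6% and 58.7% in control, while macrophage barcodes were 23.01% and 34.1% of LNP-Sirpa and 59.3% and 56.2% of control libraries. The part of these shares in the difference in member numbers was not tested.

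**Figure D1:**
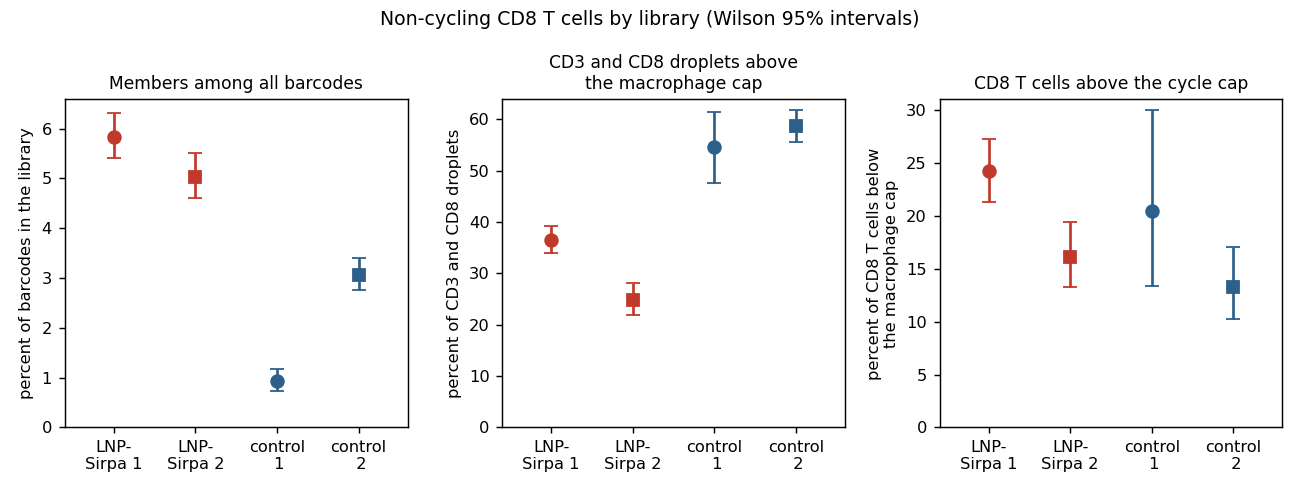
Percent of barcodes that were members (left), percent of CD3 and CD8 droplets above the macrophage limit (middle) and percent of CD8 T cells above the cycle limit (right) in each library, with Wilson 95% intervals as bars. The LNP-Sirpa libraries sit at 5.84% and 5.03% in the left panel, above the control libraries at 0.932% and 3.06%, and below them in the middle panel.

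Relative to other T cells the members were not displaced in one direction. They were 32.7% and 38.5% of barcodes with at least 2 CD3 UMIs under the macrophage limit in LNP-Sirpa and 25.1% and 51.1% in control (exact permutation p = 1). The difference of the means was -2.49 percentage points, and it was 10.498 points without control replicate 2 and 0.373 points without LNP-Sirpa replicate 1. There were 2.29 and 2.34 members per Foxp3-positive T cell in LNP-Sirpa and 0.875 and 4.22 in control, so the control libraries lay on both sides of the LNP-Sirpa libraries. The share of CD8 T cells above the cycle limit was 24.2% and 16.1% in LNP-Sirpa and 20.5% and 13.3% in control (exact permutation p = 0.6667), overlapping between the groups. The cycling difference of 3.30 points was -0.757 without LNP-Sirpa replicate 1 and -0.291 without control replicate 2. At a macrophage limit of 50 the cycling shares were 21.7% and 14.9% in LNP-Sirpa and 13.1% and 11.9% in control. The groups then did not overlap (exact permutation p = 0.33, the smallest possible).

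Gzmb, which encodes the granule protease granzyme B, was called higher in the members. It stood at 892 and 1222 CPM in LNP-Sirpa and 235 and 245 CPM in control, with no overlap between the groups (1057 ± 233 and 240.0 ± 6.74 CPM; SD, n = 2 each). The log2 fold was 2.17 ± 0.25 (SE; edgeR's quasi-likelihood test, Benjamini-Hochberg adjusted p = 0.00295 over 10489 genes). The call was kept in all 18 alternatives, with folds from 1.79 to 2.46 on the log2 scale. Non-lymphoid barcodes of the same libraries held 39.3 and 14.8 CPM in LNP-Sirpa and 11.7 and 8.37 CPM in control, far below the members.

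Cell by cell, Gzmb was detected in more members. With each cell thinned to 2000 UMIs, which left 579 and 409 LNP-Sirpa and 69 and 328 control cells, 32.6% and 44.5% of LNP-Sirpa members and 10.1% and 11.3% of control members held at least 2 Gzmb UMIs. Unthinned, the shares were 53.5% and 65.6% in LNP-Sirpa and 32.9% and 29.1% in control. In macrophage barcodes, which should lack the gene, the thinned shares were 1.29% and 0.11% in LNP-Sirpa and 0.32% and 0.31% in control. Their median depths were 5823 and 7705 UMIs in LNP-Sirpa and 7179 and 6025 UMIs in control. The difference between the group means was 27.9 percentage points (exact permutation p = 0.33, the smallest possible).

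Members above and below a count of checkpoint receptors both held the Gzmb difference. Among members with at least 2 UMIs of Pdcd1, Havcr2, Lag3, Tigit, Ctla4 and Entpd1 together, 39.0% and 36.0% in LNP-Sirpa and 12.1% and 15.5% in control passed the granzyme B count. Among the rest, 26.6% and 49.2% in LNP-Sirpa and 8.33% and 7.51% in control passed it. Cells below the count may still carry these receptors, since unthinned 82.9% and 64.9% of LNP-Sirpa members and 77.1% and 84.7% of control members reached it.

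Other cytotoxic genes did not pass the edgeR test. Of 18 measured members of the cytotoxicity list only Gzmb was called, and the list's median log2 fold was 0.08 against -0.01 over all genes. DESeq2 called 2 higher. Leaving out LNP-Sirpa replicate 1 gave 3 higher (median 0.22), and leaving out LNP-Sirpa replicate 2 gave 2 higher and 2 lower (median -0.16). Over all genes tested, 82 were higher in LNP-Sirpa (0.782%) and 7 lower (0.0667%). Prf1, which encodes perforin, stood at 558 and 535 CPM in LNP-Sirpa and 439 and 464 CPM in control (log2 0.29). Nkg7, a granule membrane protein, had a log2 fold of 0.14, and Ctsw, a cathepsin of cytotoxic lymphocytes, 0.01. The granzymes Gzmd and Gzme, which share sequence with Gzmc, Gzmf and Gzmg and whose reads may be split among them, had log2 folds of -0.70 and -1.12 with adjusted p = 0.314 and 0.136 (edgeR).

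Gzma, a second granule protease, varied too much between libraries for a call. It stood at 469 and 2998 CPM in LNP-Sirpa and 8.40 and 25.1 CPM in control, so both LNP-Sirpa libraries lay above both control libraries (log2 6.48 ± 1.72; edgeR adjusted p = 0.423). The other 6 NK markers summed to 231 and 221 CPM in LNP-Sirpa and 273 and 147 CPM in control, and the groups overlapped. The gamma-delta T markers in the files summed to 34.0 and 233 CPM in LNP-Sirpa and 2.10 and 39.8 CPM in control, highest in LNP-Sirpa replicate 2 as Gzma was. Of these, Trdc stood at 6.88 and 192 CPM in LNP-Sirpa and 0 and 0.448 CPM in control. Trgv2 stood at 26.2 and 40.6 CPM in LNP-Sirpa and 2.10 and 39.4 CPM in control, and the groups overlapped. The part of gamma-delta T cells in the Gzma levels was not tested.

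**Figure D2:**
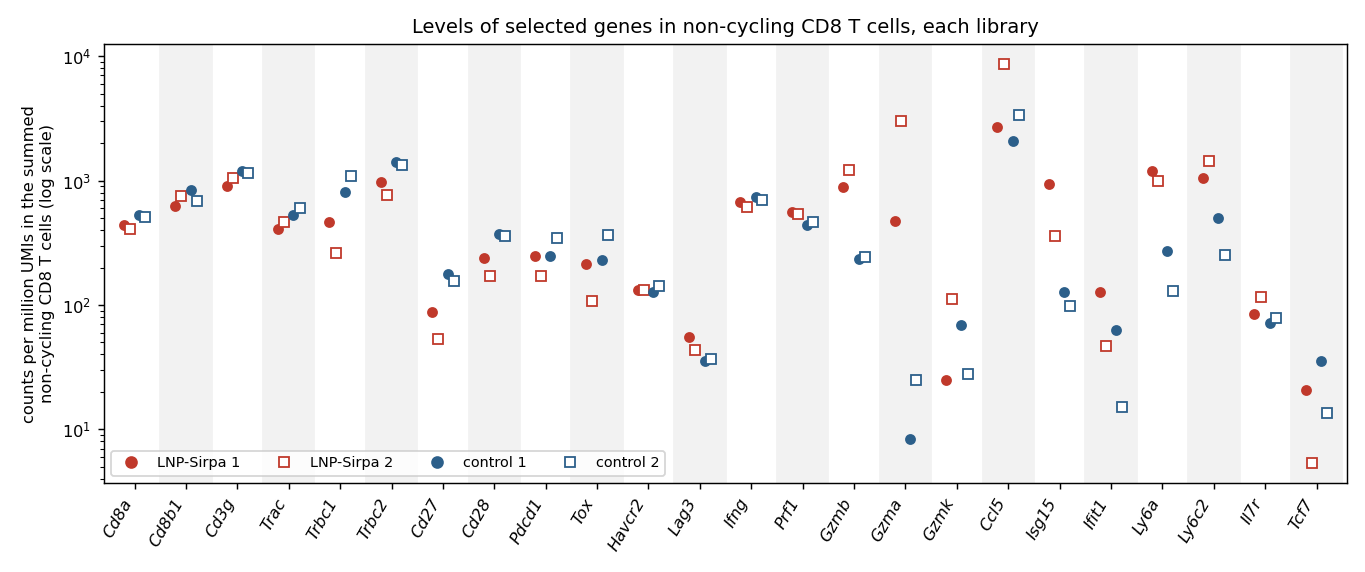
Levels of 24 genes in the summed members of each library (points, log axis, CPM), LNP-Sirpa red and control blue, replicate 1 filled and replicate 2 open. Gzmb stands at 892 and 1222 CPM in LNP-Sirpa and 235 and 245 CPM in control, while Prf1, Ifng and Havcr2 lie close together in all 4 libraries.

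The main cytokine of the members was not called. Ifng, which encodes interferon gamma, stood at 674 and 614 CPM in LNP-Sirpa and 733 and 695 CPM in control (log2 -0.13 ± 0.20; edgeR adjusted p = 0.886). The sign of the fold turned under 4 alternatives. At least 1 Ifng UMI was held by 47.0% and 44.0% of thinned LNP-Sirpa members and 50.7% and 55.8% of thinned control members. In thinned macrophage barcodes the share was at most 2.33%.

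Of 15 measured cytokine and chemokine genes, only the chemokine Ccl9 was called. It stood at 238 and 213 CPM in LNP-Sirpa and 111 and 94.4 CPM in control (log2 1.17 ± 0.20; edgeR adjusted p = 0.0242), and neither removal of a control library kept the call (adjusted p = 0.078 without 1, 0.226 without 2). Non-lymphoid barcodes held more Ccl9, with 573 and 476 CPM in LNP-Sirpa and 468 and 401 CPM in control. Ccl5, a chemokine of effector T cells, stood at 2695 and 8647 CPM in LNP-Sirpa and 2082 and 3358 CPM in control, and the groups overlapped (edgeR adjusted p = 0.72). Xcl1, which attracts cross-presenting dendritic cells, had a log2 fold of -0.40, and Ccl4 of 0.59, neither called.

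Among T cell receptor genes 1 was called lower. Trbc1, a constant segment of the receptor beta chain, fell to 463 and 262 CPM in LNP-Sirpa, against 813 and 1086 CPM in control (log2 -1.39 ± 0.26; edgeR adjusted p = 0.0391). The groups did not overlap, and the call was lost at -1.59 without control replicate 1 (adjusted p = 0.0516) and at -1.13 without control replicate 2 (adjusted p = 0.218). The call also ended with the macrophage profile (adjusted p = 0.155) or the non-lymphoid profile (adjusted p = 0.475) subtracted. Trbc1 is nearly identical to Trbc2, so reads may be split between them. Trbc2 stood at 971 and 770 CPM in LNP-Sirpa and 1403 and 1338 CPM in control (log2 -0.64; edgeR adjusted p = 0.205). Trbc1 made up 32.3% and 25.4% of Trbc UMIs in LNP-Sirpa members and 36.7% and 44.8% in control members, and 39.6% and 38.5% in LNP-Sirpa and 39.8% and 47.0% in control Foxp3-positive T cells.

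Of 18 measured genes of T cell receptor signalling, 1 was called lower and none higher, with a median log2 fold of -0.36. In 11 of them both LNP-Sirpa libraries lay below both control libraries, a pattern that 22.1% of all genes tested showed. Lck, the kinase that starts receptor signalling, stood at 291 and 272 CPM in LNP-Sirpa and 405 and 370.1 CPM in control (log2 -0.44), not called. Cd247, the zeta chain, had a log2 fold of 0.01. The list's median was -0.20 with the macrophage profile subtracted and -0.08 with the non-lymphoid profile subtracted, with 0 called in both. The part of macrophage RNA in these values was not tested. The list had 4 lower calls with LNP-Sirpa replicate 1 left out, 2 with LNP-Sirpa replicate 2 and 0 with either control library.

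Cd27, a costimulatory receptor of the TNF receptor family, fell to 88.4 and 53.3 CPM in LNP-Sirpa, against 176 and 157 CPM in control (log2 -1.21 ± 0.24; edgeR adjusted p = 0.0408). The groups did not overlap, and leaving out control replicate 1 (log2 -1.14, adjusted p = 0.139) or replicate 2 (log2 -1.28, adjusted p = 0.136) ended the call. So did macrophage limits of 50 and 200 (adjusted p = 0.0655 and 0.0511) and subtraction of the macrophage or non-lymphoid profile (adjusted p = 0.207 and 0.497). It was the 1 member called of 12 costimulatory receptors, whose median was -0.18. Cd28, the main costimulatory receptor, stood at 237 and 171 CPM in LNP-Sirpa and 370.2 and 362 CPM in control (log2 -0.83; edgeR adjusted p = 0.094). Tnfrsf18, which encodes GITR, had a log2 fold of -0.76 and Tnfrsf9, which encodes 4-1BB, -0.22, neither called.

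Il18r1, a subunit of the receptor for interleukin 18, fell to 63.4 and 42.0 CPM in LNP-Sirpa, against 111 and 124 CPM in control (log2 -1.16 ± 0.24; edgeR adjusted p = 0.0464). Leaving out control replicate 1 or 2 ended the call, at an adjusted p of 0.0777 and 0.244. It also ended at macrophage limits of 50 and 200 (adjusted p = 0.0655 and 0.0713) and with the macrophage or non-lymphoid profile subtracted (adjusted p = 0.211 and 0.499). Its partner Il18rap stood at 91.4 and 94.2 CPM in LNP-Sirpa and 139 and 174 CPM in control (log2 -0.75; edgeR adjusted p = 0.161). No other of 19 cytokine receptors was called, and Il2rb and Il12rb2, subunits of the receptors for interleukins 2 and 12, had log2 folds of 0.08 and 0.07. The remaining lower calls were Selenop, a selenium transport protein of macrophages (log2 -1.38; lost without either control library, with edgeR adjusted p = 0.139 and 0.149), and Ttn, Kctd8 and Coq8a, each below 25 CPM in every library.

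Inhibitory receptors were present in all libraries and none was called. Pdcd1, which encodes PD-1, stood at 249 and 172 CPM in LNP-Sirpa and 246 and 347 CPM in control, overlapping between the groups (log2 -0.51 ± 0.24; edgeR adjusted p = 0.447). Tox stood at 214 and 107 CPM in LNP-Sirpa and 229 and 365 CPM in control (log2 -0.92; edgeR adjusted p = 0.315). Nr4a2, a transcription factor induced by receptor signalling, stood at 388 and 250.4 CPM in LNP-Sirpa and 443 and 703 CPM in control (log2 -0.85; edgeR adjusted p = 0.21). LNP-Sirpa replicate 2 was lowest for all 3 genes. Havcr2, which encodes TIM-3, stood at 131 and 131 CPM in LNP-Sirpa and 128 and 142 CPM in control. The list's 18 measured genes had a median log2 fold of -0.42, and it was -0.17 without control replicate 2. By edgeR 2 of them had an unadjusted p under 0.05, and DESeq2 called 0. Leaving out LNP-Sirpa replicate 1 gave 3 lower calls.

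The checkpoint count was passed by 48.7% and 35.9% of thinned LNP-Sirpa members and 47.8% and 47.3% of thinned control members (exact permutation p = 1). In macrophage barcodes the share was 10.8% and 7.08% in LNP-Sirpa and 4.94% and 8.86% in control. The difference of -5.22 percentage points became 1.16 without LNP-Sirpa replicate 2.

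Among naive and memory genes, Tcf7, the transcription factor of stem-like T cells, stood at 20.9 and 5.33 CPM in LNP-Sirpa and 35.7 and 13.4 CPM in control, overlapping (log2 -0.59). None of 19 measured genes of the list was called by edgeR, 4 had an unadjusted p under 0.05, and DESeq2 called 1 higher. Ly6c2, a surface protein of memory and effector CD8 T cells with close relatives in the genome, stood at 1042 and 1437 CPM in LNP-Sirpa and 504 and 251 CPM in control (log2 1.79 ± 0.35; edgeR adjusted p = 0.0642). Leaving out control replicate 1 brought it past the threshold (log2 2.33, adjusted p = 0.0173), as did DESeq2 (log2 1.78 at 2.05e-05). The groups did not overlap, and its level in non-lymphoid barcodes was lower, 372 and 184 CPM in LNP-Sirpa and 28.6 and 14.5 CPM in control.

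Interferon-induced genes had higher fitted levels in LNP-Sirpa, of which few passed the test. All 38 measured genes had a positive log2 fold, with a median of 2.05, against 49.1% positive and a median of -0.01 over all genes tested. Of these, 5 were called higher (13.2%, against 0.782% of all genes) and none lower. In 32 of the 38 both LNP-Sirpa libraries lay above both control libraries, which 20.1% of all genes tested did. Replicates of LNP-Sirpa differed, and all 38 genes were higher in replicate 1 than in replicate 2. Ifi44 had no UMI in either control library, and with it at the limit that 3 counts over the group allow (at least 13.2-fold higher) the median was the same. The called number was 15 without LNP-Sirpa replicate 1, 37 without LNP-Sirpa replicate 2, 2 without control replicate 1 and 0 without control replicate 2, with medians of 1.18, 2.54, 2.25 and 1.80.

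The called members were Ifi27l2a, Zbp1, Ifih1, Rtp4 and Oas1a. Ifi27l2a, a small membrane protein, stood at 1618 and 669 CPM in LNP-Sirpa and 231 and 239 CPM in control (log2 2.27 ± 0.35; edgeR adjusted p = 0.0314). Zbp1, a sensor of nucleic acids, stood at 285 and 152 CPM in LNP-Sirpa and 60.9 and 33.6 CPM in control (log2 2.34 ± 0.34; edgeR adjusted p = 0.0179). Ifih1, which encodes the RNA sensor MDA5, stood at 88.6 and 49.6 CPM in LNP-Sirpa and 16.8 and 18.8 CPM in control (log2 1.92 ± 0.31; edgeR adjusted p = 0.0176). All 3 separated the groups without overlap. Rtp4 rose by 3.14 and Oas1a, whose reads may be shared with Oas1g, by 2.44 on the log2 scale (edgeR adjusted p = 0.028 and 0.0499). Without control replicate 2 all 5 calls were lost (adjusted p = 0.173 for Ifi27l2a, 0.099 for Zbp1, 0.111 for Ifih1, 0.317 for Rtp4 and 0.449 for Oas1a). Those of Ifi27l2a, Rtp4 and Oas1a were also lost without control replicate 1 (adjusted p = 0.167, 0.105 and 0.105), and that of Oas1a under DESeq2 (adjusted p = 0.0618) and with LNP-Sirpa replicate 1 left out (adjusted p = 0.0677).

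Isg15, a ubiquitin-like modifier and 1 of the most abundant interferon-induced RNAs of the members, stood at 942 and 359 CPM in LNP-Sirpa and 126 and 97.6 CPM in control, without overlap (log2 2.56 ± 0.43; edgeR adjusted p = 0.0594). At least 1 Isg15 UMI was held by 66.7% and 33.5% of thinned LNP-Sirpa members and 17.4% and 11.9% of thinned control members. In macrophage barcodes Isg15 was held by 85.1% and 41.04% in LNP-Sirpa and 13.2% and 15.002% in control, so the members lay below macrophages in LNP-Sirpa and near them in control. An interferon count of at least 2 UMIs of Ifit1, Ifit3, Isg15, Rsad2, Bst2 and Oasl2 was passed by 67.0% and 29.3% of LNP-Sirpa members and 13.0% and 7.01% of control members (exact permutation p = 0.33). The same count was passed by 92.7% and 49.0% of macrophage barcodes in LNP-Sirpa and 20.4% and 20.5% in control. Unthinned, the members' shares were 88.6% and 58.9% in LNP-Sirpa and 35.7% and 27.3% in control.

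**Figure D3:**
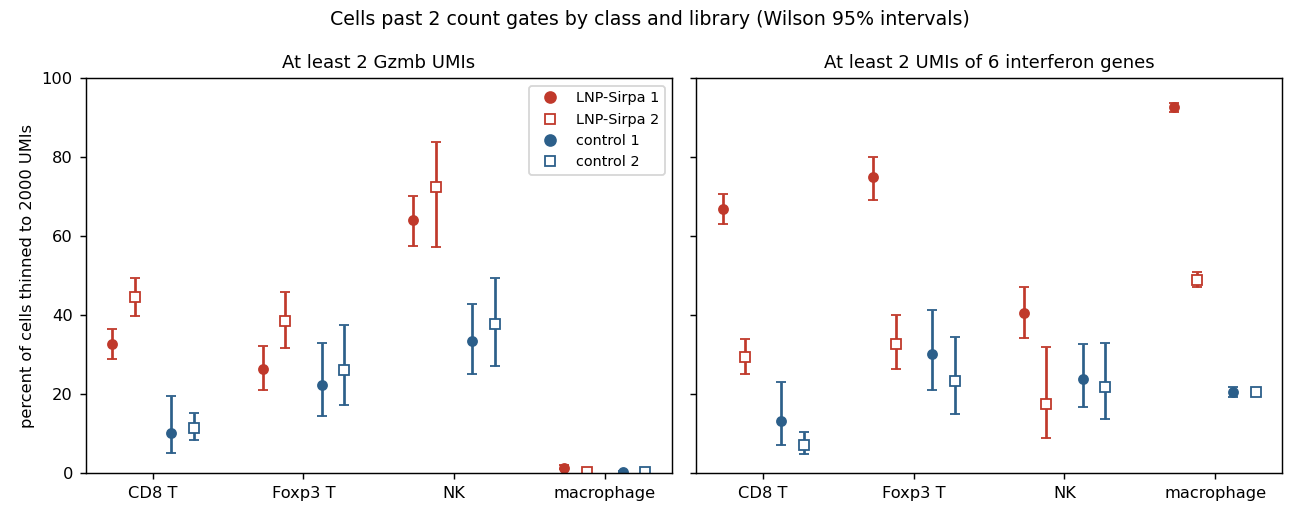
Percent of cells thinned to 2000 UMIs with at least 2 Gzmb UMIs (left) and at least 2 UMIs of 6 interferon genes (right) in CD8 T, Foxp3 T, NK and macrophage classes by library, with Wilson 95% intervals. The granzyme B count separates the groups in CD8 T cells at 32.6% and 44.5% in LNP-Sirpa and 10.1% and 11.3% in control with macrophages near 0, whereas the interferon count is higher in macrophages than in CD8 T cells in every library.

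The promoters of 3 type I interferon genes are shown as examples of the motif, chosen because each holds 2 or 3 matches, and they do not stand for the list. Each is the 250 bases before the start of the gene from RefSeq on GRCm38.p6, while the counts were made on GRCm39. Capitals mark GAAA NN GAAA on either strand, with N any base, the core of the interferon-stimulated response element, where matches may overlap. Isg15 lies at chr4:156200819-156201068 on the minus strand with 3 overlapping matches, Ifit1 at chr19:34640639-34640888 on the plus strand with 2, and Oas1a at chr5:120907526-120907775 on the minus strand with 2.
Isg15: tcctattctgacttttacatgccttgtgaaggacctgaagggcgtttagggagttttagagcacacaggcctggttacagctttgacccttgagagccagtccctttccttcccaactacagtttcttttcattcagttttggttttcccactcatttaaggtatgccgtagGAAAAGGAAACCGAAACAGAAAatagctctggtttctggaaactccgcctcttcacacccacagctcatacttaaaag
Ifit1: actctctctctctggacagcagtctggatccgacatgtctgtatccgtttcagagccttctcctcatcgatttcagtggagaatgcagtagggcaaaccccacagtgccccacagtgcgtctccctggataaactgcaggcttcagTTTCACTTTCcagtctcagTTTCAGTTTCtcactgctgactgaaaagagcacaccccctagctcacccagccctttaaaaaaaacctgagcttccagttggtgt
Oas1a: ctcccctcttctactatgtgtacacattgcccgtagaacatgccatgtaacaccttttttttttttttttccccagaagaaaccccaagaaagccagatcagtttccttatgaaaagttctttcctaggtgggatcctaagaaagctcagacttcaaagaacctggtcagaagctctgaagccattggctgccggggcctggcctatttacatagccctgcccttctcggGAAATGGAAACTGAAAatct

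Over windows of 250 bases before to 50 after the start, the motif was found in 19 of 31 type I genes with an entry in the table (61.3%) and in 10 of 59 genes called higher (16.9%). It was found in 1131 of all 32851 promoters (3.44%) and in 352 of 8280 promoters of genes tested in the members (4.25%). The windows of Gzmb and of the type I genes Oasl1 and Irf7 held none, and that of the called gene Ifih1 held 1, after the start. A match is a description of the letters and not of a site in use.

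Much of this RNA was also abundant outside T cells. In LNP-Sirpa, 28 of the 38 type I genes stood at or below the level of non-lymphoid barcodes in both libraries, and 18 of 38 did in both control libraries. With the non-lymphoid profile of each library subtracted, an alternative chosen after seeing the data, no type I gene was called and the median was 1.70. With the macrophage profile subtracted the number was also 0 and the median 1.85. How far free RNA or mixed droplets enter the interferon values was not tested beyond these subtractions.

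The interferon gamma list gave 3 genes called higher of 25 (12%, against 0.782% of all genes tested) and none lower. All 25 folds were positive, against 49.1% of all genes tested, with a median of 0.80. Gbp2, a guanylate-binding protein with close relatives, stood at 203 and 138 CPM in LNP-Sirpa and 25.2 and 43.4 CPM in control (log2 2.19 ± 0.28; edgeR adjusted p = 0.00509). Iigp1, an immunity-related GTPase, stood at 142 and 63.6 CPM in LNP-Sirpa and 8.40 and 19.7 CPM in control (log2 2.62 ± 0.45; edgeR adjusted p = 0.049), and Igtp, another, rose by 1.64 on the log2 scale (adjusted p = 0.0177). All 3 separated the groups in this direction, as 20.1% of all genes tested did. The Iigp1 call ended at an adjusted p of 0.138 with control replicate 1 left out and 0.126 with replicate 2 left out, and that of Igtp without control replicate 2 (adjusted p = 0.142). The list had 5 calls with LNP-Sirpa replicate 1 left out, 14 with LNP-Sirpa replicate 2, 3 with control replicate 1 and 1 with control replicate 2. At 29.2% to 40.5% of the non-lymphoid level in LNP-Sirpa, Gbp2 and Iigp1 lay within the range of the macrophage markers. Igtp stood at 72.0% and 98.1% of the non-lymphoid level in LNP-Sirpa replicates 1 and 2.

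MHC class I genes did not pass the test, with 0 of 18 called by edgeR, 4 at an unadjusted p under 0.05, 1 called higher by DESeq2 and a median log2 fold of 0.19. B2m, the light chain of class I molecules, stood at 2716 and 2809 CPM in LNP-Sirpa and 2840.0 and 2269 CPM in control. In the Ly6 family 3 of 5 measured genes were called higher (60%, against 0.782% of all genes tested). All were below their level in non-lymphoid barcodes in LNP-Sirpa replicates 1 and 2. Ly6a stood at 60.9% and 69.2% of it, Ly6i at 39.3% and 61.9% and Ly6c1 at 12.3% and 24.9%. Ly6a, which encodes Sca-1, stood at 1186 and 998 CPM in LNP-Sirpa and 273 and 129 CPM in control (log2 2.52 ± 0.32; edgeR adjusted p = 0.00749). It was held by 75.1% and 70.2% of thinned LNP-Sirpa members and 33.3% and 23.2% of thinned control members. Leaving out either LNP-Sirpa library ended the call, at an adjusted p of 0.056 for replicate 1 and 0.111 for replicate 2. Ly6i and Ly6c1 rose by 6.21 and 2.08 on the log2 scale (edgeR adjusted p = 0.00023 and 0.0177), and that of Ly6c1 was lost without control replicate 2 (adjusted p = 0.198). Reads of these genes may be split among their relatives. Ly6i had a level of 2.10 and 0.448 CPM in control, which is 1 UMI in each library, so the size of its fold is imprecise.

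**Figure D4:**
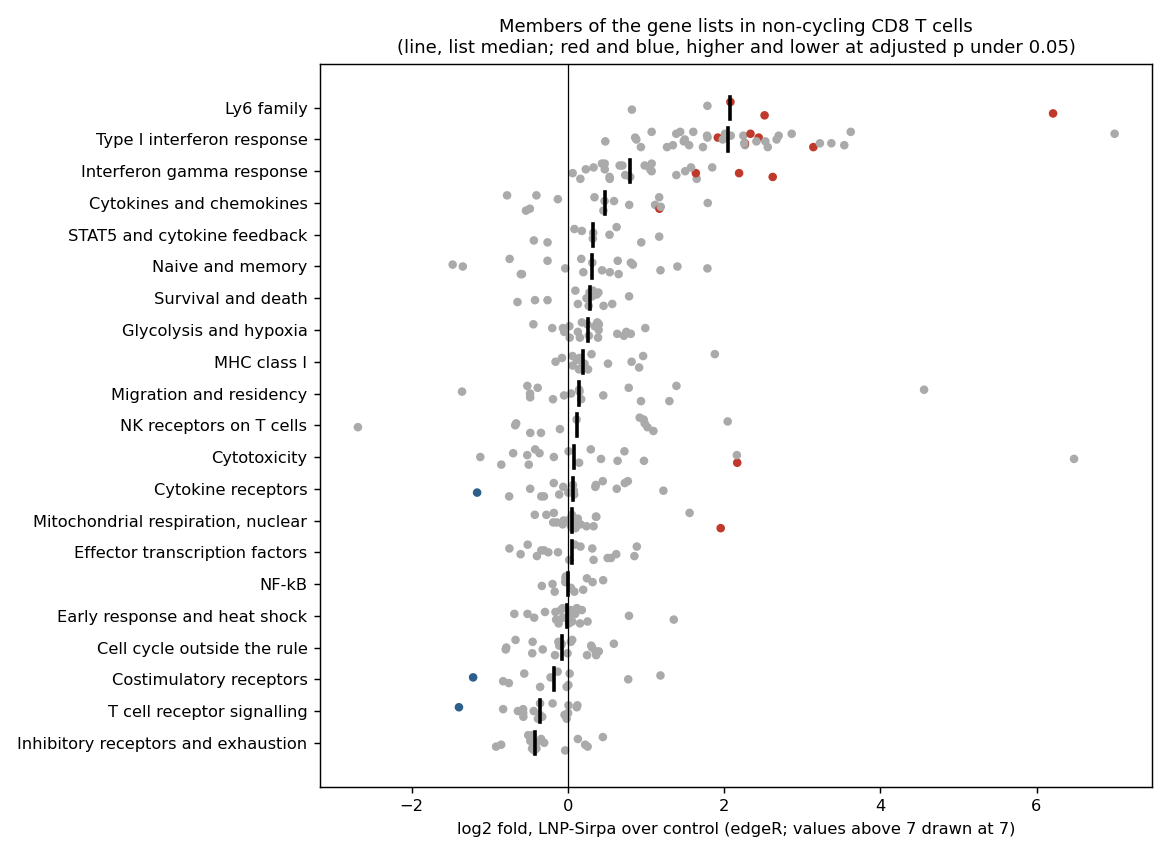
Log2 folds, LNP-Sirpa over control, of the measured members of each gene list in the members' summed counts, with the list median as a line and genes past an adjusted p of 0.05 in red (higher) or blue (lower), and values above 7 drawn at 7. The type I interferon list, with a median of 2.05, and the Ly6 list, with 2.08, lie to the right of lists such as T cell receptor signalling at -0.36.

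The largest rises also included genes known from myeloid cells. Fcgr4, an activating Fc receptor, stood at 135 and 117 CPM in LNP-Sirpa and 4.20 and 18.8 CPM in control (log2 3.09 ± 0.37; edgeR adjusted p = 0.00509). Arg1, which encodes arginase 1, stood at 898 and 1809 CPM in LNP-Sirpa and 307 and 261 CPM in control (log2 2.31 ± 0.38; edgeR adjusted p = 0.0464). The Arg1 call did not outlast the removal of either control library (adjusted p = 0.19 and 0.234). Ifitm3, an antiviral membrane protein, rose by 2.87, Slc7a2, an arginine transporter, by 2.20, and Fcgr1, the high-affinity Fc receptor, by 2.14 on the log2 scale (edgeR adjusted p = 0.00023, 0.00352 and 0.00438). In LNP-Sirpa replicates 1 and 2, these 5 genes stood at 24.8% to 42.2% of their level in non-lymphoid barcodes. The macrophage markers, of which Fcgr1 is 1, stood at 16.7% to 45.5% there. AA467197, a nuclear gene related to the respiratory chain subunit gene Ndufa4, rose by 1.96 (adjusted p = 0.00727) and stood at 45.5% and 56.5% of that level, and its call was lost without control replicate 2 (adjusted p = 0.0831).

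Set against non-lymphoid barcodes, the higher and lower calls lay in different places. Of the 82 genes called higher, 79 stood at or below the non-lymphoid level in LNP-Sirpa, with a median of 42.3% of it, and 3 stood above it by their mean (Gzmb, Ifi27l2a and P2ry14, chosen after their values were seen). Ifi27l2a stood at 119.95% of it in LNP-Sirpa replicate 1 and 87.8% in replicate 2. Of all genes tested, 49.6% stood above the non-lymphoid level in LNP-Sirpa, and their median was 99.9% of it. Of the 7 lower genes, 6 stood above the non-lymphoid level in control, and Selenop did not. In control 46.8% of all genes tested stood above it. With the macrophage profile subtracted, 25 genes were called higher and 1 lower, and 19 of the calls were shared. With the non-lymphoid profile subtracted, 3 were called higher and 1 lower, and the 1 shared call was Gzmb.

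**Figure D5:**
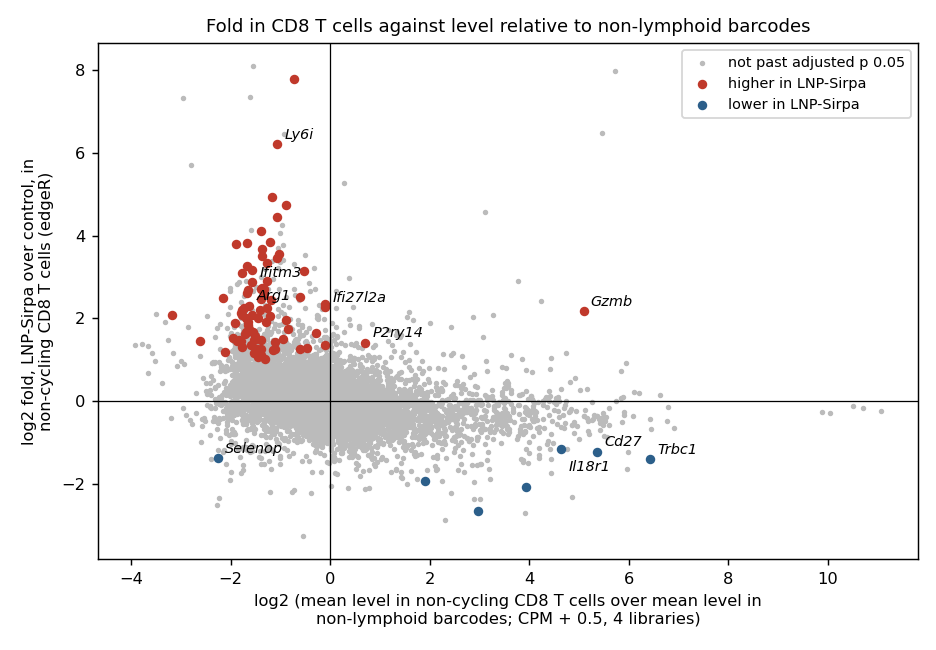
Log2 fold in the members, LNP-Sirpa over control, against the log2 ratio of their mean level to that of non-lymphoid barcodes over 4 libraries, for all 10489 genes tested, with called genes in red (higher) and blue (lower). Gzmb stands apart on the right. In LNP-Sirpa, 79 of the 82 higher genes and 5282 of all 10489 genes tested were at or below the non-lymphoid level.

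The targeted receptor and its ligand were not called. Sirpa stood at 137 and 125 CPM in LNP-Sirpa and 155 and 119 CPM in control, overlapping (log2 -0.02 ± 0.21; edgeR adjusted p = 0.997). It was held by 13.3% and 16.6% of thinned LNP-Sirpa members and 17.4% and 13.1% of thinned control members, against 58.1% and 47.3% of macrophage barcodes in LNP-Sirpa and 63.6% and 63.3% in control. Sirpa in the members stood at 32.1% and 36.5% of the non-lymphoid level in LNP-Sirpa and 30.9% and 22.9% in control. This lay within the range of the macrophage markers in every library, and the part of macrophage RNA in it was not tested. Cd47 stood at 408 and 291 CPM in LNP-Sirpa and 239 and 217 CPM in control, without overlap (log2 0.63 ± 0.21; edgeR adjusted p = 0.239). Leaving out LNP-Sirpa replicate 2 brought it past the threshold (log2 0.79 at an adjusted p of 0.0245).

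In lists of general cell functions no gene was called in either direction among 22 of glycolysis and hypoxia, 21 of the cell cycle outside the rule, 22 of the early response and heat shock, 15 of survival and 12 of NF-kB, with list medians between -0.08 and 0.28. Of these 92 genes 12 had an unadjusted p under 0.05 in edgeR, and DESeq2 called 1 higher. Effector transcription factors, migration genes, NK receptors and STAT5 targets, 18, 17, 13 and 10 measured genes, also had none by edgeR, with 19 at an unadjusted p under 0.05 and 3 called higher by DESeq2. The glycolytic genes Gapdh and Aldoa had log2 folds of 0.18 and 0.15. Glycolysis and hypoxia had 4 higher calls and a median of 0.64 without LNP-Sirpa replicate 1, and 0 calls and a median of -0.17 without LNP-Sirpa replicate 2. Over all genes tested, 1196 had an unadjusted p below 0.05 in edgeR and DESeq2 called 118 higher and 13 lower.

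The Gzmb fold was larger in the members than in Foxp3-positive T cells of the same libraries, which numbered 264 and 194 in LNP-Sirpa and 80 and 79 in control. Those cells held 558 and 683 CPM in LNP-Sirpa and 314 and 518 CPM in control (log2 0.63; edgeR adjusted p = 0.466), where 0.566% of genes were called higher and 0.0404% lower. The difference of the folds was 1.51 ± 0.24 on the log2 scale (edgeR with the library as a block, adjusted p = 0.0054), in a test where 3 genes were higher (0.031%) and 7 lower (0.0724%) of 9668. It did not pass without LNP-Sirpa replicate 2 (adjusted p = 0.0999) or control replicate 2 (adjusted p = 0.0918), with DESeq2 (adjusted p = 0.08) or with the macrophage profile subtracted (adjusted p = 0.149), where it was 1.19 to 1.54. In NK cells Gzmb stood at 2142 and 2198 CPM in LNP-Sirpa and 787 and 885 CPM in control (log2 1.35; edgeR adjusted p = 0.0105, with 0.589% of genes called higher and 0.178% lower), and the fold of the members exceeded it by 0.83 ± 0.19 on the log2 scale without passing the threshold (edgeR adjusted p = 0.0509). The members thus had less Gzmb than NK cells in every library. NK cells numbered 227 and 41 in LNP-Sirpa and 107 and 72 in control, so their values in LNP-Sirpa replicate 2 were the least precise.

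The fold of Isg15 was also larger in the members. It exceeded that in Foxp3-positive T cells by 1.33 ± 0.24 (edgeR adjusted p = 0.0227) and that in NK cells by 2.30 ± 0.27 (adjusted p = 7.01e-05). The difference from Foxp3-positive T cells was lost without LNP-Sirpa replicate 1 (adjusted p = 0.0841), LNP-Sirpa replicate 2 (adjusted p = 0.176) or control replicate 2 (adjusted p = 0.192). It was also lost with DESeq2 (adjusted p = 0.445) and the macrophage profile subtracted (adjusted p = 0.212), while that from NK cells was kept in all 8 alternatives. Foxp3-positive T cells held 1305 and 528 CPM in LNP-Sirpa and 369 and 423 CPM in control, above the members in every library. NK cells held 597 and 113 CPM in LNP-Sirpa and 310 and 214 CPM in control, and their groups overlapped. Against NK cells, 12 genes had a larger fold (0.123%) and 5 a smaller 1 (0.0512%) of 9772, Oasl1 and Ifit1 among the larger, both of which lost the call with DESeq2 (adjusted p = 0.209 and 0.313) and with the macrophage profile subtracted (adjusted p = 0.0921 and 0.107). Macrophage markers stood at a median of 24.9% and 29.6% of the macrophage level in LNP-Sirpa and 19.8% and 17.4% in control for the members, and at 15.8% and 8.41% in LNP-Sirpa and 13.8% and 11.6% in control for NK cells. The part of this RNA in the differences was not tested for single genes.

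Trbc1 fell in the members relative to NK cells, which held 495 and 417 CPM in LNP-Sirpa and 466 and 489 CPM in control. The difference of the folds was -1.25 ± 0.22 on the log2 scale (edgeR adjusted p = 0.00674), and it was not called without control replicate 2 (adjusted p = 0.0852) or with DESeq2 (adjusted p = 0.209).

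Within the members, cells with Gzma formed a large group in LNP-Sirpa replicate 2. This split by Gzma was chosen after the values were seen. At least 2 Gzma UMIs after thinning were held by 35 of 579 and 145 of 409 LNP-Sirpa cells, and by 0 of 69 and 4 of 328 control cells, where 0 of 69 allows a share of up to 4.35%. In LNP-Sirpa replicate 2 the 145 cells held 19871 CPM of Ccl5, 1956 of Gzmb and 140 of Klrg1, a receptor of short-lived effector cells, against 2918, 806 and 2.45 CPM in the other 264 cells. They held less Prf1 (371 against 588 CPM), Gzmf (76.4 against 1388), Gzmc (50.5 against 232) and Ifng (367 against 715). The receptor segments Trbc1 (96.6 against 341 CPM) and Trbc2 (622 against 826) were also lower in them. The macrophage markers Fcgr1 (176 against 73.4 CPM) and Csf1r (163 against 93.9) were higher in them. Pdcd1 stood at 20.2 CPM in the 145 cells and 240.2 in the others, Tox at 16.8 and 145, and Cxcr6, a chemokine receptor of tumour-resident T cells, at 74.1 and 331. Their median depth was 3943 UMIs, against 6789.5 in the others. The 35 cells of LNP-Sirpa replicate 1 held 198 CPM of Pdcd1, against 252 CPM in the other 544 cells. In contrast to replicate 2, they held more Prf1 (1259 against 500 CPM), Gzmf (1196 against 308), Gzmc (1187 against 204) and Ifng (733 against 668). Cells without this Gzma count still held 774 and 806 CPM of Gzmb in the LNP-Sirpa libraries, above the 235 and 245 CPM of all control members.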

How the data were processed

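Deposited UMI counts per gene and barcode of 4 cDNA libraries (2 LNP-Sirpa, 2 control) were used; the oligo libraries were not analysed here. Per the labels' protocols, tumours were digested and droplet libraries were made with the DNBelab C Series kit. STAR 2.5.1b and the GRCm39 build are named in the submitters' processing notes. The file headers name PISA 1.0. The calling of cells is not given in the sources used here. Every deposited barcode held at least 1000 UMIs. Library totals ran from 68654004 to 90789729 UMIs. No strand setting is stated, so antisense partners cannot be told apart.

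Members were found by the rule, without a doublet caller. Its macrophage limit leaves out droplets with much macrophage RNA, and members below it can still be mixed. The members and the gene lists were chosen with earlier results of these data known. Counts were summed per library and tested under R 4.3.3 by the robust quasi-likelihood fit of edgeR 4.0.16, after filterByExpr and TMM scaling (Benjamini-Hochberg threshold 0.05), with DESeq2 1.42.0 as an alternative. CPM were computed over all UMIs of the sum. Differences of folds between cell classes used the library as a block. Foxp3 T cells had Foxp3 and no CD8 UMI, NK cells at least 2 UMIs of Ncr1 and Klrb1c and no CD3 UMI, both under the same macrophage and cycle limits; macrophage barcodes lay at or above the macrophage limit with no CD3 or CD8 UMI. Shares were compared by two-sided exact permutation over libraries (scipy 1.17.1), and cells were thinned to 2000 UMIs, leaving out 25, 44, 1 and 5 shallower members in LNP-Sirpa 1 and 2 and control 1 and 2. A count of cells by memory genes is not reported here.

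Named genes were the markers, Sirpa, Cd47, the 12 largest called rises and falls of at least 50 CPM, up to 4 called members of each list, and the 2 most abundant members of lists with none; others were chosen after their values were seen. On simulated data the CD8 test recovered 24.2% of genes changed by log2 1 and 87.8% of those changed by log2 2 among 10189 genes, with 3 unchanged genes called. The tests of fold differences recovered 6.38% and 50% of such genes against Foxp3 T cells and 11.6% and 58.3% against NK cells. Libraries were simulated from a shared profile, without group differences in macrophage RNA, so the false calls do not cover that setting. For same-numbered libraries, the deviations of log2 levels from the group mean correlated by 0.176 over 2815 genes. With 2 libraries per group the other pairing gives -0.176 by construction, so this value cannot establish pairs.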

Additional observations from a re-analysis of the deposited data

Results flagged for a closer look

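Among genes of at least 50 CPM, the 17 gene and class combinations given here had folds that differed between non-cycling CD8 T cells and another lymphocyte class of the same libraries by an edgeR test of the difference itself (Benjamini-Hochberg adjusted p under 0.05), out of 10 called against Foxp3-positive T cells and 17 called against NK cells. At most 5 in each direction are given. Against Foxp3-positive T cells the fold was larger in CD8 T cells, on the log2 scale, for Ass1 (1.61), an enzyme of arginine synthesis, Gzmb (1.51) and Isg15 (1.33). It was smaller for the mast cell protease Cma1 (-4.62), for Ifi211 (-2.71) and Ms4a4c (-2.36), whose reads may be split among relatives, and for the mitochondrial enzyme Gpd2 (-2.10). Cma1 followed the replicate number, with 140 and 1.66 CPM in LNP-Sirpa 1 and 2 and 302 and 8.06 CPM in control 1 and 2.

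Against NK cells the fold was larger in CD8 T cells for Isg15 (2.30), Oasl1 (2.28), Ifit1 (2.19), Cxcl10 (2.16) and Ccl1 (1.95). The 41 NK cells of LNP-Sirpa 2 held 7.07 CPM of Ifit1 and 3.53 CPM of Ccl1, which rest on few UMIs. For these genes the size of the difference is imprecise. It was smaller for the growth factor Csf1 (-2.44), the long noncoding RNA Airn (-1.63), Gpd2 (-1.32), Ccl5 (-1.27) and Trbc1 (-1.25). Csf1 stood at 151 and 52.3 CPM in LNP-Sirpa and 162 and 183 CPM in control in CD8 T cells. In NK cells it stood at 27.3 and 7.07 CPM in LNP-Sirpa and 6.77 and 2.95 CPM in control, low levels that rest on few UMIs.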

How the results depend on the processing

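The 82 higher genes became 432 with no filter on low counts, 430 with the replicate block, 34 with the macrophage limit at 50, 25 with the macrophage profile and 3 with the non-lymphoid profile subtracted, and 40 to 335 with 1 library left out. The 7 lower genes became 69 with no filter, 132 with the replicate block, 13 with DESeq2 or without Cd4-positive members, 16 with cycling cells kept, 3 with the limit at 50, 1 with either profile subtracted, and 2 to 90 with 1 library left out. The block had only 2 pairs, so shared replicate numbers were not established as pairs. The 10 differences of fold from Foxp3 T cells became 21 with no filter, 1 with DESeq2, 1 with the macrophage profile subtracted and 10 to 25 with 1 library left out. The 17 from NK cells became 41 with no filter, 2 with DESeq2 and 21 to 143 with 1 library left out. With 1 library left out, the share of T cells differed by -15.5 to 10.498 points, the cycling share by -0.757 to 7.35 and the checkpoint count by -11.6 to 1.16. The cycling share differed by 5.80 points at a macrophage limit of 50. It differed by -0.924 points at a limit of 200 and by -5.23 with none, both chosen after seeing the data. Of 22 called named genes, 21 kept the call without LNP-Sirpa 1 or 2, 13 without control 1, 8 without control 2, 11 with the limit at 50, 4 of 19 tested with the macrophage profile and 1 of 18 with the non-lymphoid profile subtracted. Signs turned for Ifng (0.053 at limit 50, 0.013 without the top 5% of UMIs, 0.022 and 0.15 with macrophage and non-lymphoid subtraction) and Sirpa (0.038 unfiltered, 0.053 at limit 50, 0.023 without Cd4, 0.0048 without the top 5%, -0.20 to 0.15 with 1 library left out). With 1 library left out they also turned for Id2 (-0.14 to 0.31), Gapdh (-0.27 to 0.54), Aldoa (-0.29 to 0.51), Tubb5 (-0.36 to 0.030), Bcl2a1b (-0.11 to 0.35) and Nfkbia (-0.13 to 0.48). Tubb5 was 0.078 with cycling cells kept, and Bcl2a1b -0.12 and -0.095 with the subtractions. None of these 8 genes was called. With the non-lymphoid profile subtracted, Arg1 (-1.19), Slc7a2 (-0.94) and Cd44 (-0.15) turned. The cause was not tested. Control 1 held 70 members, which limits every value.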

Other observations

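Mast cell protease RNA in the CD8 T cell sums followed the replicate number and not the group. Mcpt4 stood at 78.7 and 0.666 CPM in LNP-Sirpa 1 and 2 and 254 and 5.37 CPM in control 1 and 2. Cpa3 stood at 34.6 and 0 CPM in LNP-Sirpa 1 and 2 and 90.3 and 2.24 CPM in control 1 and 2.

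Variable beta segments were rarely counted. Exactly 1 Trbv segment was found in 72 and 19 LNP-Sirpa and 5 and 38 control cells, too few to describe clones. Trbv12-2, the most frequent segment in control 2, was found in 11 and 5 of these LNP-Sirpa cells and 2 and 20 of these control cells. Its share was 15.3% (Wilson 95% interval 8.75 to 25.3) in LNP-Sirpa 1 and 26.3% (11.8 to 48.8) in LNP-Sirpa 2. In control 1 it was 40% (11.8 to 76.9) and in control 2 it was 52.6% (37.3 to 67.5). The segment was chosen by its count in control 2, and the intervals cover counting error only. Differences between libraries or groups were not tested.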
